A study of Homo sapiens with 6 samples.

Results

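The alpha-globin locus lies near the tip of the short arm of chromosome 16, and its accessibility was followed in K562 cells treated with a phorbol ester. Sites of the deposited table were taken where their midpoint fell between positions 60000 and 200000 of chromosome 16 (GRCh38), which gave 29 of 181135 sites. The window holds the alpha-like globin genes HBZ, HBM, HBA2, HBA1 and HBQ1, and the gene NPRL3, whose introns carry the remote enhancers of the cluster. K562 is a human line derived from a chronic myeloid leukaemia that carries an erythroid programme, and its genotype was given as WT in every library. All 6 ATAC-seq libraries came from K562 cells grown in RPMI with serum. The labels list 25 nM phorbol 12-myristate 13-acetate (PMA) for every library, with the time of exposure. The 0 h libraries had no time in PMA and are the untreated reference. PMA is an activator of protein kinase C used to drive these cells toward the megakaryocyte lineage. The 0 h, 6 h and 72 h groups had 2 libraries each, and nuclei were prepared by Omni-ATAC, in which a transposase cuts open chromatin so that the read count of a site reflects its accessibility. The labels do not say whether the 2 libraries of a time came from separate cultures, so p-values measure only the spread between these libraries. Every library was a bulk sample, so fewer open alleles and fewer cells with an open site cannot be told apart. A single line serves as the model, the medium was renewed during the longest exposure, and both later times are set against 0 h, so PMA and time in culture cannot be told apart.

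Alpha-like globin chains pair with beta-like chains to form haemoglobin. HBZ encodes the embryonic zeta chain, HBA1 and HBA2 encode the same adult alpha chain, HBM encodes a mu chain and HBQ1 a theta chain whose roles are less settled, and HBZP1 is a pseudogene of HBZ. The genes are driven in erythroid cells by conserved elements named MCS-R1 to MCS-R4, bound by erythroid factors such as GATA1, TAL1 and NF-E2. MCS-R1, MCS-R2 and MCS-R3 lie in introns of NPRL3, a housekeeping gene that encodes a subunit of the GATOR1 complex, which restrains mTORC1. MCS-R2 is the strongest of them, and MCS-R4 lies between the start of NPRL3 and HBZ. Sites are named here by the distance of their midpoint from the start of HBZ, with negative values toward NPRL3. The −47.5 kb, −39.0 kb, −32.7 kb and −9.2 kb sites were matched to MCS-R1, MCS-R2, MCS-R3 and MCS-R4 by published distance alone, not by sequence.

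The sequences 250 bases upstream of the starts of NPRL3, HBM and RHBDF1 are shown. They are the promoter of the housekeeping gene whose introns hold the enhancers, a globin promoter with no site over its start and a flanking non-globin promoter. HBZ, HBA2, HBA1 and HBQ1 had no entry in the RefSeq promoter set used, so their promoters were not searched. The sequences shown are from RefSeq (GRCh38.p14), written 5′ to 3′ on the strand of the gene, and lie at chr16:138674-138923 on the minus strand, chr16:165728-165977 on the plus strand and chr16:72632-72881 on the minus strand. Capitals mark matches to the motifs searched on both strands.
NPRL3: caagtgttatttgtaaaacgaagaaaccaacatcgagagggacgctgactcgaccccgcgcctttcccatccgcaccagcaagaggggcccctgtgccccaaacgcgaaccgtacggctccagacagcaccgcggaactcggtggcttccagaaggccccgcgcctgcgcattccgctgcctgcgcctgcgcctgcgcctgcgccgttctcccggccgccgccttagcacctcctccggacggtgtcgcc
HBM: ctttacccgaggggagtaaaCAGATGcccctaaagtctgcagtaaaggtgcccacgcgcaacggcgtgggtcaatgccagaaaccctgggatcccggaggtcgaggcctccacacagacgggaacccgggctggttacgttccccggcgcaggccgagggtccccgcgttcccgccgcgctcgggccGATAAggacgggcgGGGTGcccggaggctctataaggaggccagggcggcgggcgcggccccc
RHBDF1: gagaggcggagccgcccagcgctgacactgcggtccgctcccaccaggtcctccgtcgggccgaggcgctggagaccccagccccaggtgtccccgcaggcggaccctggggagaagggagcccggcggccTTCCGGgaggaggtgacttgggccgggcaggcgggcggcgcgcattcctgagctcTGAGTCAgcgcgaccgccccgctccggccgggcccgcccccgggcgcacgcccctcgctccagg
The GATA motif was searched as AGATAA, or with a first base of T (TGATAA), or by the shorter core GATAA. For NF-E2 and AP-1 the letters were TGAGTCA, whose reverse complement is TGACTCA, and for KLF factors CCACACCC, which contains the shorter form CACCC. The E-box was searched in the forms CAGCTG and, with another central base, CAGATG, and ETS sites in the form CCGGAA or the form AGGAAG. The short GATA core was added after the HBM sequence had been seen. The HBM sequence held GATAA with its first base 63 bases upstream of the start, CACCC on the opposite strand at 49 bases and CAGATG at 230 bases. GATAA occurs in 20.5% of 34943 RefSeq promoters of the same length and CACCC in 54.7%. The RHBDF1 sequence held TGAGTCA 64 bases upstream of its start, a motif found on either strand in 4.22% of promoters, and CCGGAA on the opposite strand at 119 bases. The NPRL3 sequence held none of these letters. The MPG sequence, searched but not shown, held CACCC 203 bases upstream of its start. The whole NPRL3 and RHBDF1 stretches lay inside deposited sites, whereas no base of the HBM stretch did. A match is a description of letters and not of a bound factor.

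Total counts ranged from 12258890 (6 h replicate 1) to 35548737 (72 h replicate 2). Accessibility is given below as CPM, a count scaled to the depth of its library, here adjusted by the trimmed mean of M values (TMM). Over all 177759 sites tested, 40.1% were called at 6 h and 67.4% at 72 h at an adjusted p under 0.05, so a called site is common in these data. Scaling moved the median log2 fold change of all sites at 72 h from −0.04 with loess offsets, through 0.29 with TMM and 0.79 with total counts, to 1.26 with factors from sites that carried a peak in every library. Changes below are on TMM unless another scaling is named, and settings that ended a call are given beside it for the sites described in full. As a check of the label, 5 of 6 erythroid marker genes (GATA1, TAL1, GYPC, TFRC and EPOR) had a peak at the start in both 0 h libraries, against 2 of 7 megakaryocyte, 2 of 6 lymphoid and 0 of 3 hepatocyte markers. Summed CPM over the erythroid marker starts ran from 235 to 278 at 0 h and from 108 to 111 at 72 h, and over the megakaryocyte starts 40.1 to 40.8 and 23.5 to 24.9. These sums are on TMM alone. On that scaling the starts of 6 housekeeping genes were all called lower at 72 h too, by log2 fold changes from −1.66 to −1.23. The part of cell type in the changes of the locus was not tested.

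The locus took a smaller share of all site counts at each later time. Its 29 sites held 0.0350% ± 0.0013 of the counts at 0 h, 0.0238% ± 0.0006 at 6 h and 0.0211% ± 0.0002 at 72 h (mean ± SD, n = 2 each). The loss was uneven. Sites at the globin gene starts held 39.3% ± 2.54 of the window's counts at 0 h, 30.6% ± 2.69 at 6 h and 18.2% ± 1.91 at 72 h, while sites inside NPRL3 held 22.6%, 22.9% and 24.8%. The 0 h and 72 h libraries did not overlap in the share at the globin starts, at 37.5% and 41.1% against 19.5% and 16.8%. With 2 libraries against 2, an exact permutation test cannot give a p below 0.333.

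At 6 h, 2 sites of the window were called higher and 15 lower by edgeR's quasi-likelihood test with Benjamini-Hochberg adjustment over all sites, where 23.4% and 16.8% of all tested sites were called in those directions. At 72 h, 3 were higher and 21 lower, against 38.2% and 29.2% of all sites. This split became 8 higher and 12 lower with factors from sites with a peak in every library, where 68.8% of all sites were called in either direction. Between 6 and 72 h, 4 were higher and 12 lower, with 42.9% of all sites called (22.1% higher and 20.9% lower). The split became 4 and 4 with those factors, where 48.6% of all sites were called in either direction. The median log2 fold change of the 29 sites, −0.72 for 6 h and −1.37 for 72 h, stood beside 0.05 and 0.29 over all sites. Under every one of the 5 scalings tried, 11 sites were called lower at 6 h and 12 at 72 h, and 1 and 2 were called higher. The share of all tested sites that met this joint rule was not computed, so these counts have no background to be set against.

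**Figure D1:**
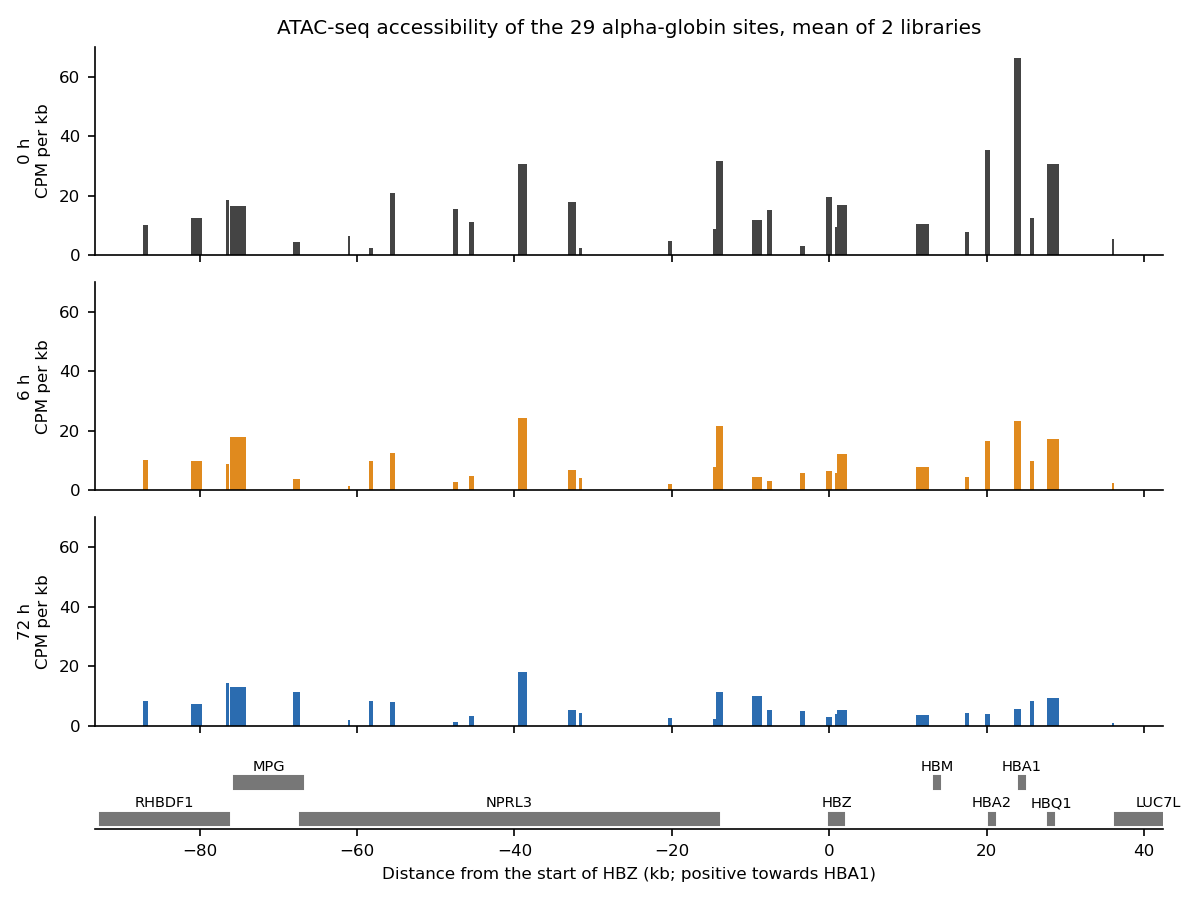
Mean accessibility in CPM per kb of site width (y axis, mean of 2 libraries) along the window at 0, 6 and 72 h, against distance from the start of HBZ in kb, with gene bodies drawn below. The bars at HBA1 and HBA2 shrink at each time, whereas the −39.0 kb site inside NPRL3 is the tallest at 72 h.

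Per kb of site, HBA1 was the most accessible site at 0 h, at 56.7 and 76.0 CPM per kb. The HBA2, NPRL3, −39.0 kb and HBQ1 sites followed at mean levels of 35.3, 31.5, 30.8 and 30.7 CPM per kb, and neighbours in this order overlapped in their libraries, while both HBA2 libraries (33.3 and 37.2) lay above both of the −39.0 kb site (32.72 and 28.78). By 72 h the −39.0 kb site stood first at 18.2 and 18.1 CPM per kb, above the −76.4 kb site at 13.3 and 15.4 and the MPG start at 12.3 and 13.9, whose libraries overlapped each other. HBA1 had dropped to a mean of 5.66 CPM per kb. The order of the locus thus differed between 0 and 72 h at its top.

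The 2 adult alpha genes lost most of the accessibility of their starts. The HBA1 site (chr16:176162-176944, over the HBA1 start) measured 44.4 and 59.5 CPM at 0 h, then 22.1 and 14.3 CPM after 6 h and finally 5.61 and 3.25 CPM after 72 h. No library of any time overlapped those of another. On the log2 scale the 6 h libraries differed from 0 h by −1.54 (SE 0.22, edgeR adjusted p = 1.1e-05). The 72 h libraries differed by −3.56 (SE 0.24, edgeR adjusted p = 2.6e-10), an 11.8-fold difference in level on TMM, or −2.58 on the log2 scale with factors from sites with a peak in every library, and the step from 6 to 72 h was −2.02. The HBA2 site (chr16:172363-173066, over the HBA2 start) measured 23.5 and 26.2 CPM at 0 h, then 14.1 and 9.14 CPM after 6 h and finally 3.39 and 2.07 CPM after 72 h. The 3 times again did not overlap, with log2 fold changes of −1.13 at 6 h (edgeR adjusted p = 0.00051) and −3.19 at 72 h (edgeR adjusted p = 1.1e-09), or 9.11-fold, on TMM and −2.22 at 72 h with factors from sites with a peak in every library. Both sites were called lower in all 3 comparisons under all 5 scalings. HBA1 and HBA2 are near-identical copies, and how reads that map to both were placed is not given in the sources used here, so the split between them is uncertain, as it is for HBZ and HBZP1. The HBA1 counts were 1.89 and 2.27 times those of HBA2 at 0 h, 1.57 and 1.57 by 6 h, and 1.66 and 1.57 by 72 h.

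HBZ, the embryonic gene that K562 cells express, fell too. Its start site (chr16:152267-152962) measured 12.9 and 14.4 CPM at 0 h, then 4.35 and 4.65 CPM after 6 h and finally 1.89 and 2.07 CPM after 72 h. The times did not overlap, and the fitted change was −1.60 on the log2 scale at 6 h (SE 0.23, edgeR adjusted p = 1.1e-05), reaching −2.78 at 72 h (SE 0.24, edgeR adjusted p = 3.2e-09). The difference between 6 and 72 h of −1.19 was not called with factors from sites with a peak in every library (−0.52, edgeR adjusted p = 0.090). A wider site over the 3′ part of HBZ (chr16:153677-154840) had more CPM at each time, at 20.1 and 19.3, 14.7 and 13.6, and 6.10 and 6.37. Per kb of site it was lower than the start site at 0 h (17.3 and 16.6 against 18.6 and 20.7) and higher at 6 and 72 h. The 3′ site fell by 0.48 at 6 h and by 1.66 at 72 h on the log2 scale, the latter called under all 5 scalings. The 6 h call was lost with total counts (−0.35), with factors from sites with a peak in every library (−0.19) and whenever a 0 h or 6 h library was left out. The small site between them, at 0.9 kb (chr16:153354-153639), was called only at 72 h among the comparisons with 0 h (log2 fold change −1.36). That call was lost without 0 h replicate 2 (−0.75), with total counts (−0.86) and with factors from sites with a peak in every library (−0.39).

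The site nearest HBM (chr16:163678-165340) overlapped the pseudogene HBZP1 and ended 638 bases short of the HBM start. It measured 19.5 and 15.3 CPM at 0 h, then 13.9 and 12.3 CPM after 6 h and finally 6.36 and 5.99 CPM after 72 h. Its 6 h value of −0.41 did not pass the test (edgeR adjusted p = 0.10), although RLE factors, loess offsets and DESeq2 gave adjusted p of 0.029, 0.021 and 0.043, and the 72 h log2 fold change was −1.49 (edgeR adjusted p = 1.3e-06). The HBQ1 site (chr16:180235-181830) covers the whole of that short gene, and the summit of the most enriched peak of each library lay 812 to 899 bases downstream of the HBQ1 start, past the end of the gene. It measured 44.6 and 53.5 CPM at 0 h, then 27.0 and 28.7 CPM after 6 h and finally 14.9 and 15.0 CPM after 72 h, with log2 fold changes of −0.82 (edgeR adjusted p = 0.00023) and −1.71 (edgeR adjusted p = 7.0e-09). The 72 h value was −0.70 with loess offsets and −0.74 with factors from sites with a peak in every library, both called. Of the alpha-like gene starts, the HBQ1 site thus kept the highest CPM at 72 h. The sites at 17.5 kb and 25.7 kb, on either side of the alpha genes, were called lower at 72 h alone on TMM (−0.84 and −0.59), with values of 0.13 and 0.38 when factors came from sites with a peak in every library and −0.34 and −0.09 with total counts, none of them called. Leaving out 0 h replicate 2 (−0.76 and −0.49) or 72 h replicate 2 (−0.69 and −0.66) also ended both calls, and leaving out 72 h replicate 1 ended the latter (−0.53).

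**Figure D2:**
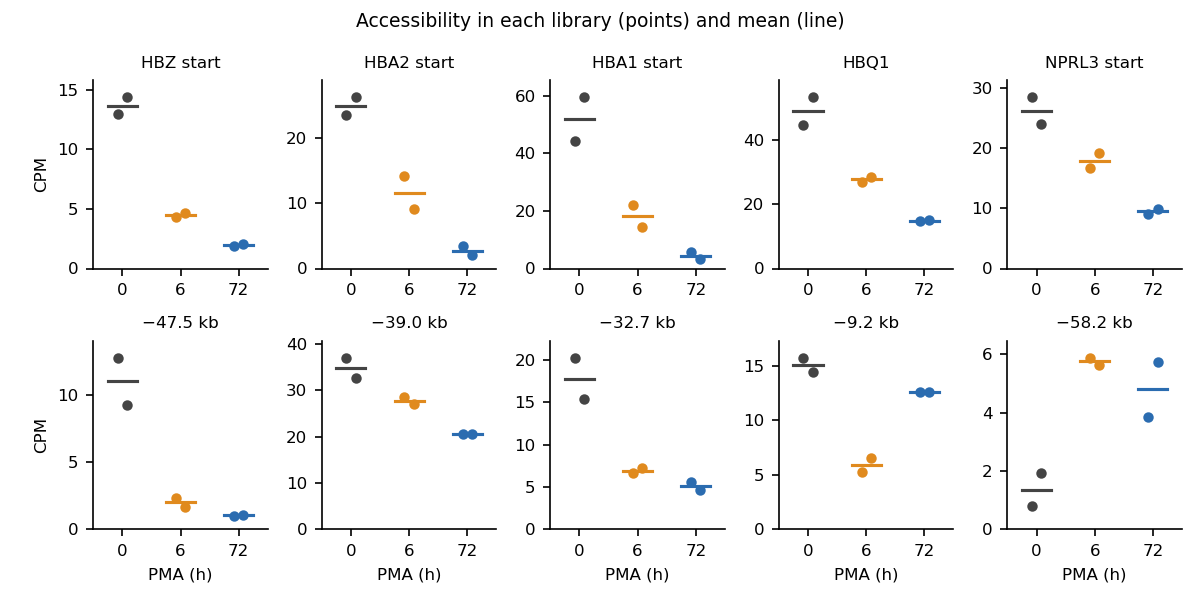
CPM of 10 sites in each library (y axis from 0), with 2 points per time at 0, 6 and 72 h and a bar at their mean. HBA1, HBA2, HBZ and the −47.5 kb site fall at each time, the −9.2 kb site is low at 6 h alone, and the −58.2 kb site is higher at 6 and 72 h.

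The sites inside NPRL3 changed in both directions and by unequal amounts. The −47.5 kb site (chr16:104789-105500, inside NPRL3, the place of MCS-R1) lost the most, from 12.7 and 9.22 CPM at 0 h to 2.30 and 1.68 by 6 h and 1.01 and 1.01 by 72 h. Its counts were 196 and 193 at 0 h and 39 and 43 at 72 h. No times overlapped, and its log2 fold change at 6 h, −2.51, was the lowest in the window (SE 0.29, edgeR adjusted p = 5.2e-07). At 72 h it stood at −3.43 (SE 0.29, edgeR adjusted p = 2.5e-09). Its further difference from 6 to 72 h of −0.92 was not called without 6 h replicate 1 or without either 72 h replicate (edgeR adjusted p of 0.116, 0.130 and 0.138), nor with total counts (−0.55) or factors from sites with a peak in every library (−0.25).

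The −39.0 kb site (chr16:113072-114203, inside NPRL3, the place of MCS-R2, the major enhancer) had the smallest 72 h change of the 3 NPRL3 sites matched to enhancers. It measured 37.0 and 32.6 CPM at 0 h, then 28.5 and 27.0 CPM after 6 h and finally 20.6 and 20.5 CPM after 72 h. The libraries of the 3 times did not overlap. A fall at 6 h was called with RLE factors (−0.48, edgeR adjusted p = 0.019) and by DESeq2 (−0.47, adjusted p = 0.029). Total counts, loess offsets and factors from sites with a peak in every library gave −0.19, −0.16 and −0.03, none called. On TMM, the 6 h log2 fold change of −0.33 did not pass the test either (edgeR adjusted p = 0.096). At 72 h it was −0.76 (SE 0.15, edgeR adjusted p = 0.00018) on TMM, but −0.26 with total counts, 0.20 with loess offsets and 0.21 with factors from sites with a peak in every library, none of which was called. A fall at this site thus depended on the scaling. Every library carried a deposited peak there, with the authors' fold enrichment between 9.37 and 12.9.

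The −32.7 kb site (chr16:119490-120487, inside NPRL3, the place of MCS-R3) fell by 6 h, and its later difference did not pass the test. It measured 20.3 and 15.3 CPM at 0 h, then 6.65 and 7.21 CPM after 6 h and finally 5.61 and 4.67 CPM after 72 h. The log2 fold change was −1.35 at 6 h (edgeR adjusted p = 4.2e-05) and −1.79 at 72 h (edgeR adjusted p = 2.9e-07), both called under all 5 scalings, and the difference between them of −0.44 was not called (edgeR adjusted p = 0.11). The −45.5 kb site (chr16:106895-107485), next to MCS-R1, went from 6.17 and 7.12 CPM at 0 h to 2.81 and 3.13 by 6 h and 2.17 and 1.65 by 72 h, and was called lower at both times under all 5 scalings. The −55.5 kb site (chr16:96799-97454) went from 15.0 and 12.6 CPM to 8.44 and 8.25 and then 4.91 and 5.73. Its log2 fold changes of −0.72 and −1.37 were called on TMM but not with factors from sites with a peak in every library (−0.43 and −0.40).

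The −58.2 kb site (chr16:94110-94684) rose from 0.780 and 1.91 CPM at 0 h to 5.88 and 5.63 by 6 h and 3.85 and 5.73 by 72 h, with no overlap between 0 h and either later time. The rise was 2.03 on the log2 scale at 6 h (SE 0.35, edgeR adjusted p = 7.5e-05), with 1.78 at 72 h (SE 0.34, edgeR adjusted p = 0.00010), both called under all 5 scalings. The size rested on the 0 h library used, at 2.87 and 2.61 without 0 h replicate 2 and 1.52 and 1.31 without 0 h replicate 1. Neither 0 h library carried a peak there, and all 4 later libraries had at least 1. The −31.6 kb site (chr16:120808-121289), next to the MCS-R3 site, measured 1.36 and 0.860 CPM at 0 h, then 1.87 and 2.25 CPM after 6 h and finally 1.58 and 2.59 CPM after 72 h. Its 72 h value of 0.94 was called on TMM (edgeR adjusted p = 0.039), but not without 0 h replicate 2 (0.61) or without 72 h replicate 2 (0.52), nor with loess offsets (0.26), RLE factors (0.76), DESeq2 (0.75) or only the 2 groups compared (0.84). The 2 remaining NPRL3 sites were low. The −61.0 kb site was under 2 CPM in every library and was called lower at both times (−2.05 and −1.81), with −2.75 for the former without 6 h replicate 2 and the latter not called without 72 h replicate 1 (−1.40) or with factors from sites with a peak in every library (−0.85). The −20.2 kb site (chr16:132099-132691) went from 3.51 and 2.25 CPM at 0 h to 1.36 and 1.36 by 6 h and 1.63 and 1.27 by 72 h, and its calls at both times were lost without 0 h replicate 1 (−0.78 and −0.64), with total counts (−0.93 and −0.47) and with factors from sites with a peak in every library (−0.77 and −0.01). Leaving out either 6 h library ended the 6 h call, and leaving out 72 h replicate 2 the 72 h call (−0.81).

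**Figure D3:**
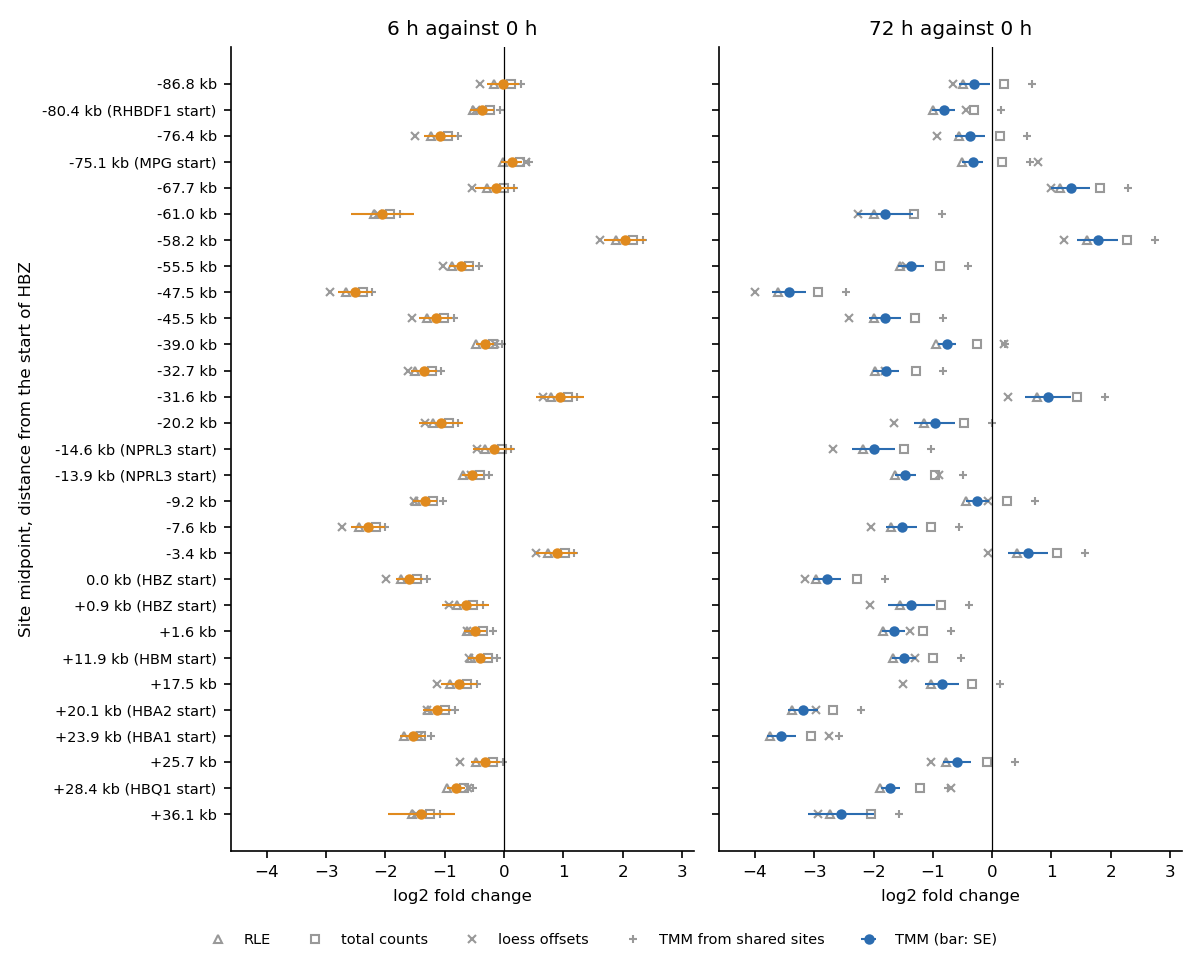
log2 fold change (x axis) of each of the 29 sites at 6 h and at 72 h against 0 h, ordered along the locus, with TMM as filled points (bar, SE) and 4 other scalings as grey marks; gene names mark sites within 1000 bases of a gene start. HBA1, HBA2, HBZ and the −47.5 kb site stay well below 0 under each scaling, whereas the −39.0 kb site crosses 0 at 72 h.

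Between NPRL3 and HBZ, 2 neighbouring sites were lowest at 6 h and higher again at 72 h. The −9.2 kb site (chr16:142777-144049, the place of MCS-R4), singled out after its values were seen, measured 15.7 and 14.4 CPM at 0 h, then 5.28 and 6.48 CPM after 6 h and finally 12.6 and 12.6 CPM after 72 h. It fell at 6 h (log2 fold change −1.33, edgeR adjusted p = 2.5e-05) and rose from 6 to 72 h (1.08, edgeR adjusted p = 0.00023), and both changes were called under all 5 scalings. Its 72 h level against 0 h differed by −0.25 on TMM (not called) and by 0.71 with factors from sites with a peak in every library (called, edgeR adjusted p = 0.0021). Both 0 h and both 72 h libraries carried a deposited peak there, and neither 6 h library did. The −7.6 kb site (chr16:144691-145321) measured 11.5 and 7.64 CPM at 0 h, then 1.79 and 2.02 CPM after 6 h and finally 3.44 and 3.16 CPM after 72 h. It fell at 6 h (−2.30, edgeR adjusted p = 1.5e-06) and was still lower at 72 h (−1.53, edgeR adjusted p = 2.2e-05), a call lost with factors from sites with a peak in every library (−0.56). Its rise of 0.77 from 6 to 72 h was not called with loess offsets (0.68) or DESeq2 (0.74), nor when any single 6 h or 72 h library was left out. The −3.4 kb site rose at 6 h (0.88, edgeR adjusted p = 0.046), from 1.17 and 2.10 CPM to 2.98 and 3.16, and was not called at 72 h on TMM. The 6 h call was lost in 5 of the 6 fits that left out a library, with 0.49 without 0 h replicate 1, and with RLE factors (0.74), loess offsets (0.54), DESeq2 and only the 2 groups compared. At 72 h the value of 0.60 became 1.57, and called, with factors from sites with a peak in every library.

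The gene starts around the enhancers had smaller log2 fold changes than HBA1 and HBA2 at 72 h, a difference that was not tested. The main NPRL3 start site (chr16:138306-139137) measured 28.5 and 24.0 CPM at 0 h, then 16.7 and 19.1 CPM after 6 h and finally 9.08 and 9.90 CPM after 72 h, with a log2 fold change of −1.46 at 72 h (SE 0.18, edgeR adjusted p = 3.5e-07) that was called under all 5 scalings. Its 6 h value of −0.54 was called on TMM but not without 0 h replicate 1 (−0.47) or 6 h replicate 1 (−0.45), nor with total counts (−0.41) or factors from sites with a peak in every library (−0.25). The small site beside it (chr16:137930-138220) held 2.40 and 2.82 CPM at 0 h and 0.698 and 0.613 at 72 h, a log2 fold change of −1.99 called under all 5 scalings. No library carried a deposited peak at that small site. MPG encodes a DNA glycosylase, and its start site (chr16:76487-78532) measured 26.4 and 40.8 CPM at 0 h, then 34.3 and 38.9 CPM after 6 h and finally 25.2 and 28.4 CPM after 72 h. No direction held there, with 72 h values from −0.51 to 0.77 over the 5 scalings, both ends called. RHBDF1 encodes an inactive rhomboid protein, and its start site (chr16:71503-72936) measured 15.7 and 20.3 CPM at 0 h, then 15.3 and 12.8 CPM after 6 h and finally 10.9 and 9.64 CPM after 72 h, with −0.82 at 72 h on TMM (called), −0.31 with total counts and 0.16 with factors from sites with a peak in every library (neither called).

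A site inside MPG rose late. The −67.7 kb site (chr16:84461-85346) measured 3.57 and 4.44 CPM at 0 h, then 1.53 and 5.12 CPM after 6 h and finally 8.22 and 11.9 CPM after 72 h, so that the 72 h libraries lay above all others while the 6 h libraries spread across the 0 h values. The log2 fold change was 1.32 at 72 h against 0 h (SE 0.33, edgeR adjusted p = 0.0013) and 1.46 against 6 h (edgeR adjusted p = 0.0011), called under all 5 scalings but not by DESeq2 (adjusted p of 0.148 and 0.081). At 6 h it was called lower without 6 h replicate 2 (−1.45) and stood at 0.35 without 6 h replicate 1, and its rise from 6 to 72 h was 2.76 without 6 h replicate 2. The −76.4 kb site just before MPG fell at 6 h (−1.08), called under all 5 scalings, and rose from 6 to 72 h (0.71), a call lost with loess offsets (0.57), DESeq2 (0.67) and without 6 h replicate 2 (0.62) or either 72 h library (0.85 and 0.64). Its 72 h value against 0 h was −0.37 on TMM (not called), −0.93 with loess offsets (called lower) and 0.59 with factors from sites with a peak in every library (called higher). The site at 36.1 kb went from 0.910 and 1.81 CPM at 0 h to 0.259 and 0.212 at 72 h (−2.54), and the −86.8 kb site was not called at either time on TMM. At 72 h that outermost site was called lower with loess offsets (−0.66) and without 0 h replicate 1 (−0.70), and higher with factors from sites with a peak in every library (0.68).

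Ratios of counts within a library stay the same under any scaling that uses a single factor per library. Loess offsets vary with the level of a site and would change them. Against the −39.0 kb enhancer site, HBA1 counts were 1.20 and 1.83 times as high at 0 h, 0.775 and 0.530 by 6 h, and 0.272 and 0.159 by 72 h. The 3 times did not overlap, and the same held for HBA2 (0.633 and 0.804, 0.494 and 0.338, 0.164 and 0.101) and for HBZ (0.349 and 0.441, 0.153 and 0.172, 0.091 and 0.101). The −47.5 kb site dropped from 0.344 and 0.283 to 0.081 and 0.062 and then 0.049 and 0.049 of the −39.0 kb counts. The −32.7 kb site went from 0.547 and 0.471 to 0.234 and 0.267, and was at 0.272 and 0.228 at 72 h, overlapping its 6 h values. In the other direction, the −39.0 kb site held 1.30 and 1.36 times the counts of the NPRL3 start at 0 h and 2.27 and 2.07 times at 72 h. These ratios compare sites with each other and do not say which of them changed.

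**Figure D4:**
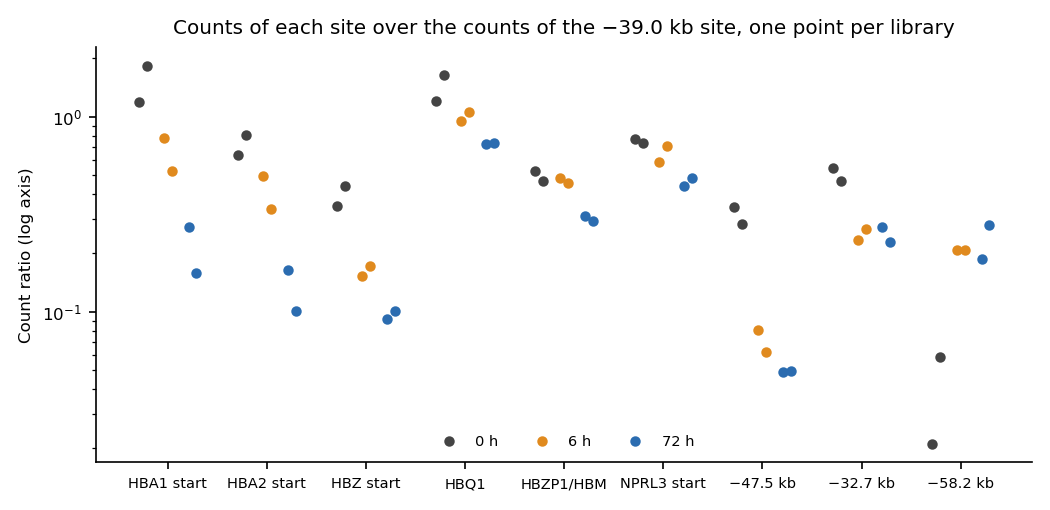
Ratio of the counts of 9 sites to the counts of the −39.0 kb site in the same library (log axis), with 1 point per library coloured by time. For HBA1, HBA2, HBZ and the −47.5 kb site the 0, 6 and 72 h points descend without overlap, and for the −58.2 kb site the later points lie above those at 0 h.

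The authors' peak lists, called per library, show the same sites as present or absent. A peak overlapped 11 of the 29 sites in all 6 libraries and 2 sites in none, the −61.0 kb site and the small site beside the NPRL3 start. The HBA2 start kept a peak in every library, HBA1 in all but 72 h replicate 2, and HBZ in both 0 h libraries, 6 h replicate 2 and neither 72 h library. The −47.5 kb site had a peak in both 0 h libraries and 6 h replicate 1, and in neither 72 h library. The authors' fold enrichment at HBA1 was 6.49 and 6.94 in the 0 h libraries, 5.86 and 3.27 in those of 6 h, and 2.47 in 72 h replicate 1. Peak presence differed over the whole table, with 31.7% and 35.7% of all sites under a peak in the 0 h libraries. The share was 32.8% and 47.9% in the 6 h libraries and 70.7% and 72.6% in those of 72 h. Depth differed too, with totals of 33634403 in 6 h replicate 2 and 30934990 and 35548737 in the 72 h libraries. The part of depth in these shares was not tested. Of 5 sites with peaks at 72 h only, 3 had lower scaled counts by test at 72 h on TMM and 1 had higher ones. Over all tested sites, 29.2% were called lower and 38.2% higher in that comparison. The 3 lower sites stood at −0.01, 0.13 and 0.38 with factors from sites with a peak in every library, none called.

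The most alike pattern to the −39.0 kb site, by Pearson correlation of log2 CPM over the 6 libraries, was that of the −55.5 kb site (r = 0.98), followed by the HBZP1 site (0.98), the NPRL3 start (0.98), the 3′ HBZ site (0.98) and HBA2 (0.96). These r rest on TMM alone, and the fall of the −39.0 kb site itself depended on the scaling. They describe 6 libraries that share the 3 times, and 4 sites had a negative r below −0.6, the −58.2 kb site the lowest at −0.74.

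Starts of the other genes of the pathway, from a list of globin genes and their partners, were mostly called lower on TMM, where 16.8% of all tested sites were lower at 6 h and 29.2% at 72 h. Of 5 beta-like globin genes 4 had a site, and all 4 were lower at both times, with a 72 h median of −1.96 on TMM, −1.51 with loess offsets and −0.99 with factors from sites with a peak in every library. HBG1 and HBG2, the fetal genes, measured 39.9 and 39.6 and 42.0 and 38.2 CPM at 0 h and 10.0 and 10.4 and 9.44 and 11.1 at 72 h, and reads may be split between these near-identical copies. HBE1, the embryonic partner of HBZ, fell by 2.80 on the log2 scale at 72 h. The beta-globin cluster as a whole (22 sites) had 4 higher and 8 lower at 6 h and 1 higher and 17 lower at 72 h, with medians of −0.59 and −1.62. AHSP, the chaperone that stabilises free alpha chains, went from 4.87 and 3.25 CPM at 0 h to 0.414 and 0.259 at 72 h (log2 fold change −3.57). It belongs to 5 chaperone and haem genes, of which 4 had a site, 3 of them lower at 6 h and 4 at 72 h, with a 72 h median of −1.33, −0.64 and −0.36 under the same 3 scalings. Of 13 erythroid regulators with a site, such as GATA1, TAL1 and NFE2, 7 were lower at 6 h and 12 at 72 h and none was higher on TMM, with 72 h medians of −1.49, −0.65 and −0.52. The 6 housekeeping starts (ACTB, GAPDH, TBP, PGK1, EEF2 and RPLP0) were all called lower at 72 h as well, from −1.66 to −1.23 on TMM, with a median of −0.08 with loess offsets and −0.53 with factors from sites with a peak in every library. Beside them, the 72 h TMM values of NPRL3 (−1.46), HBQ1 (−1.71) and the HBZP1 site (−1.49) were of similar size, while those of HBZ (−2.78), HBA2 (−3.19), HBA1 (−3.56) and the −47.5 kb site (−3.43) were larger in size. With factors from sites with a peak in every library the values were −0.50, −0.74 and −0.52 for the former and −1.81, −2.22, −2.58 and −2.47 for the latter. With loess offsets they were −0.90, −0.70 and −1.30 for the former and −3.15, −2.97, −2.74 and −4.00 for the latter. The former then lay below the housekeeping median of −0.08, while single housekeeping starts ran from −2.07 (EEF2) to 0.21 (RPLP0). The difference between these sites and the housekeeping starts was not tested.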

How the data were processed

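ATAC-seq was analysed in 6 K562 libraries, 2 each at 0, 6 and 72 h of 25 nM PMA. The authors' deposited site table (181135 sites) holds read counts per library, their own log2 fold changes, adjusted p-values and class names, and their narrow peak lists give a score, a fold enrichment (ratio over background) and −log10 p and q values. Per the submitters' processing notes, Trim Galore 0.4.3, BWA 0.7.17, SAMtools 1.9, deepTools 3.0.1, MACS2, bedtools 2.26 and DESeq were used on hg38. Their order, the read filters, any read shift for the transposase, the handling of reads that map to several places and the counting tool are not given in the sources used here.

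The deposited counts were tested with edgeR 4.0.16 in R 4.3.3 (TMM factors, filterByExpr with a minimum count of 10, glmQLFit and glmQLFTest over all 3 times, Benjamini-Hochberg adjustment over 177759 sites, called under 0.05). All 29 sites of the window passed the filter. SE is the absolute log2 fold change over the square root of F. The alternatives were RLE, total counts, loess offsets (span 0.3), TMM from sites with a peak in all libraries, no filter, DESeq2 1.42.0, only the 2 groups compared, a replicate block, a stricter threshold and leaving out each library. The fit was tested on simulated data. Deposited starts were taken as 0-based and 1 was added.

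The members and gene lists were chosen with earlier results of these data known. Values per library were given for the strongest site within 1000 bases of each gene start, sites inside NPRL3 with a mean of at least 2 CPM in any time group, and the 5 largest called changes of each comparison; others were named after their values were seen. Gene starts came from RefSeq (GRCh38.p14), with the strand of genes lacking in its promoter table added from general knowledge. Counting error and the 2 libraries per time limit the precision. An erythroid marker gene of the fixed list is not reported here and was left out of its count and sum.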

Additional observations from a re-analysis of the deposited data

Results flagged for a closer look

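For 16 of the 29 sites of the window the effect at 72 h differed from the effect at 6 h by the direct test of 72 h against 6 h (edgeR's quasi-likelihood test, adjusted p under 0.05). Over all tested sites 42.9% were called in this comparison. With factors from sites with a peak in every library, 8 sites of the window were called, against 48.6% of all sites. The differences of the 16 sites on TMM, on the log2 scale and as the 72 h effect minus the 6 h effect, were negative at 12 sites. They were −2.06 at HBA2, −2.02 at HBA1, −1.82 at the small site beside the NPRL3 start, −1.19 at the HBZ start, −1.18 at the 3′ part of HBZ, −1.08 at the HBZP1 site near HBM, −0.92 at the main NPRL3 start, −0.92 at the −47.5 kb site, −0.90 at HBQ1, −0.65 at the −55.5 kb site, −0.45 at the MPG start and −0.43 at the −39.0 kb site. They were positive at 4 sites, at 1.46 for the −67.7 kb site inside MPG, 1.08 for the −9.2 kb site, 0.77 for the −7.6 kb site and 0.71 for the −76.4 kb site. Under all 5 scalings, the difference remained called at HBA1, HBA2, the 3′ part of HBZ and the small NPRL3 site (lower) and at the −67.7 and −9.2 kb sites (higher).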

How the results depend on the processing

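The counts of called sites held within 1.5 times of 17, 24 and 16 (6 h, 72 h, 72 h against 6 h) under most settings. They were 11 at 6 h and 8 for 72 h against 6 h when a call also needed a log2 change beyond 1 and p under 0.01, and 8 for 72 h against 6 h with factors from sites with a peak in every library. With those factors 48.6% of all tested sites were called in that comparison. Leaving out 1 library gave 14 to 18, 20 to 25 and 10 to 17. Over sites with at least 10 counts in every library, the window's share was 0.0253% at 6 h and 0.0244% at 72 h. Replicate numbers are shared across times, with correlations of deviations of 0.13, 0.08 and 0.12. The labels do not say what a number marks, and 2 pairs per comparison do not settle whether it pairs the samples. With the replicate block 18, 25 and 17 sites were called.

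Signs reversed as follows among the sites followed under every setting. With factors from sites with a peak in every library, the values were 0.16 for RHBDF1, 0.64 for MPG, 0.21 for the −39.0 kb and 0.71 for the −9.2 kb site at 72 h, 0.16 for the −67.7 kb and 0.12 for the small NPRL3 site at 6 h, and 0.22 for MPG, 0.025 for the −55.5 kb and 0.24 for the −39.0 kb site for 72 h against 6 h. With loess offsets, MPG was at 0.77 and the −39.0 kb site at 0.20 at 72 h, and 0.40 and 0.36 for 72 h against 6 h. With total counts, MPG was at 0.17 and the −9.2 kb site at 0.25 at 72 h. At 6 h MPG was at −0.025 with RLE and −0.023 with DESeq2. Leaving out 1 library gave −0.21 to 0.48 for MPG at 6 h (−0.21 without 0 h replicate 1, −0.028 without 6 h replicate 2), −0.62 to 0.022 for MPG at 72 h (0.022 without 0 h replicate 2), and −1.45 to 0.35 for the −67.7 kb site at 6 h (0.054 without 0 h replicate 2, 0.35 without 6 h replicate 1). Sites or comparisons outside that set also reversed on scaling, among them the −76.4 kb (0.59) and −86.8 kb (0.68) sites at 72 h and the −32.7 kb (0.24) and −45.5 kb (0.02) sites for 72 h against 6 h, each with factors from sites with a peak in every library. The cause was not tested.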

Other observations

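The authors' deposited table sorts all sites into 5 classes and gives each site the same adjusted p-value at both times. Of the 29 sites of the window, 22 were classed as static, 4 as downEarly, 2 as downLate, 1 as upLate and 0 as upEarly. Over the whole deposited table, the median of the authors' log2 fold change at 72 h was 2.257 in downEarly, 2.30 in downLate, 2.261 in upEarly and 2.28 in upLate, so the class names do not follow the sign of that column. The site of the window classed as upLate in the authors' deposited table was the −7.6 kb site, which was lower at 72 h by test. Over the 29 sites, the authors' 72 h values and those fitted here were correlated at r = 0.997, a description of 2 fits to the same counts.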
